A study of Mus musculus with 4 samples.

Results

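The genes described here are 34 endothelial identity genes, the receptors, junction proteins and transcription factors by which the cells lining blood vessels are usually recognised. They were chosen by name, and all 34 were found among the 33708 rows of the deposited gene table. The tissue was the frontonasal prominence (FNP), the bud of facial mesenchyme and covering ectoderm that forms the nose and snout, taken at E10.5 from mouse embryos of 29 somites. Of the 4 embryos, 2 were wild type (WT, Smchd1+/+, 1 labelled female and 1 labelled male) and 2 were homozygous for MommeD43 (MD43, Smchd1MommeD43/MommeD43, both labelled male), a missense allele of Smchd1 induced by the mutagen ENU, and all 4 were of the FVB/NJ strain. WT replicate 2 and MD43 replicate 2 shared a mother. Another record of the study calls WT replicate 2 female, in which case sex and genotype cannot be told apart. The comparison asks which transcripts of this tissue differ in level when SMCHD1, a chromatin protein of gene silencing, carries the MD43 change.

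Endothelial cells arise from mesodermal progenitors in which ETS factors, above all ETV2, switch on the genes of the vessel wall together with the blood and endothelium factors TAL1, LMO2 and GATA2. Once formed, the cells depend on vascular endothelial growth factor (VEGF), which signals through the receptor KDR and is held back by FLT1, a receptor that binds VEGF strongly and signals weakly. Angiopoietins act through TEK with its partner TIE1, and the SoxF factors SOX7, SOX17 and SOX18 shape arteries, veins and lymphatic vessels. In the face at this stage a capillary plexus runs through the mesenchyme.

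The table holds a single value per gene and genotype, a log2 RPKM (log2 of reads per kilobase of transcript, scaled to library size) in which both libraries of the genotype are merged. The numbers of reads of the 2 libraries, multiplied together, could be recovered from it, and "reads" below means the square root of that product, the geometric mean of the 2 libraries. The implied depth, again a geometric mean of 2 libraries, was 22328791 reads in MD43 and 16055882 in WT. A difference is the MD43 value minus the WT value on the log2 RPKM scale, and the error printed after it is the smallest standard error that counting alone permits (counting SE). It holds no variation between embryos, so no difference below has a replicate test or a p-value. Smchd1 itself had nearly equal values, 3.30 log2 RPKM in MD43 and 3.31 in WT. The value of a bulk sample cannot tell fewer endothelial cells from less RNA per cell.

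The endothelial genes were present in both genotypes at nearly the same summed level. A minimum of 10 reads was reached in both genotypes by 32 of the 34, whereas Etv2 and Hhex had next to none. The median difference of the 32 genes was -0.10, against 0.0057 over the 15377 genes tested, which are those reaching 10 reads in WT or in MD43. Of the 32 genes, 13 were higher in MD43 and 19 were lower, where 51.2% and 48.8% of all tested genes were. The RPKM values of all 34 genes summed to 78.0 in MD43 and 83.8 in WT, a log2 ratio of -0.11. Only Mmrn2 and Tal1 were at least 1.5-fold higher and only Flt1 and Sox7 at least 1.5-fold lower, 2 of 32 in each direction (6.25%), where 4.24% of all tested genes were higher and 6.43% lower by as much. Among the 7963 tested genes within the range of reads of the 32, the shares were 3.11% and 7.5%, and the counts of 2 are near this background. At 5/4-fold or more 4 genes were higher and 7 lower, where 10.3% and 13.9% of all tested genes were, or 10.6% and 18.6% within that range of reads. Genes in that range thus leaned lower at both folds. Their median and their shares by sign were not computed, so the -0.10 is not set against genes of like reads. The facial mesenchyme list also had a median of -0.10, over 13 genes. None of the 32 differed 2-fold, where 1.64% of all tested genes were 2-fold higher and 2.47% 2-fold lower.

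**Figure D1:**
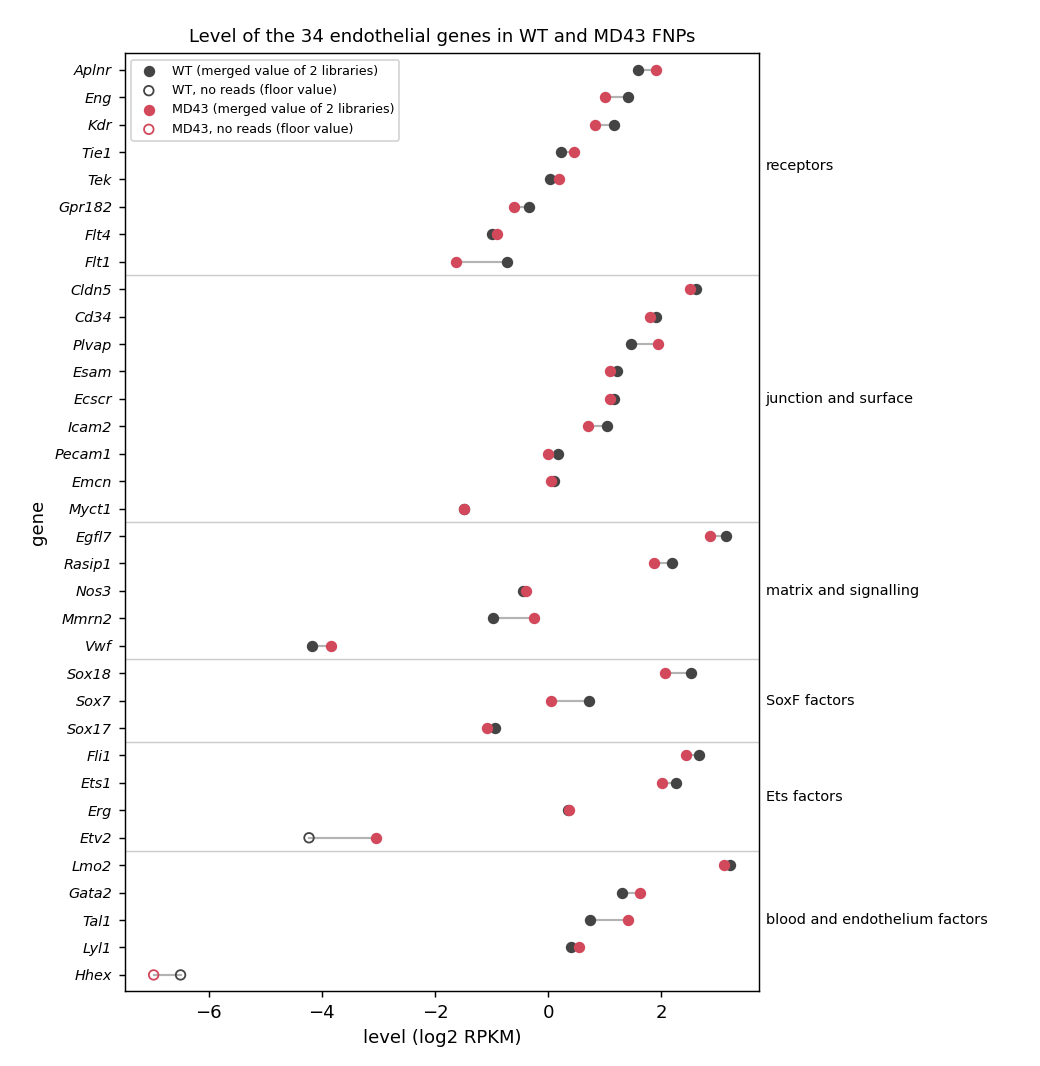
Level of each of the 34 genes in log2 RPKM (x axis), grouped by role, with the WT value in dark grey and the MD43 value in red; each point is the merged value of 2 libraries and open points mark a genotype without reads. The 2 genotypes lie close together for most genes, from Lmo2 at 3.22 in WT and 3.12 in MD43 down to Vwf at -4.17 and -3.84.

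The order of the genes by level was alike in both genotypes. Lmo2, a bridging protein of the TAL1 complex, had the highest level per length, 9.33 RPKM in WT and 8.67 in MD43, and Egfl7, a secreted protein of the vessel matrix, was second with 8.89 and 7.31. Next in WT were Fli1 (6.36 RPKM), Cldn5 (6.14), Sox18 (5.74) and Ets1 (4.81), and these 4 genes also came next in MD43, with Cldn5 before Fli1. At the lower end Vwf, the clotting factor stored by mature endothelium, had 0.055 RPKM in WT and 0.070 in MD43. Across the 32 genes the rank correlation of the WT and MD43 levels was 0.97 (Spearman), a description over genes that share the same libraries.

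Receptors differed in both directions. Flt1, the VEGF receptor that restrains the pathway (ENSMUSG00000029648.13, GRCm38 chr5:147561604-147726011, minus strand), had fewer reads in MD43 (97.1) than in WT (131) although MD43 was sequenced more deeply. Its level was -0.73 log2 RPKM in WT and -1.64 in MD43, a difference of -0.90 ± 0.14 (counting SE), or 1.87-fold lower, the most negative difference of the 32. Kdr, the main signalling receptor for VEGF, was 1.16 log2 RPKM in WT and 0.84 in MD43, a difference of -0.33 ± 0.08. Eng, a co-receptor for BMP and TGF-beta ligands, was -0.41 ± 0.11. These 3 were lower by more than 2 counting SE, whereas Gpr182, an orphan receptor of endothelium, was lower by less than that (-0.25 ± 0.20). Eng overlaps Fpgs and Gpr182 overlaps Zbtb39, each read from the other strand, so their reads are uncertain if strand was not used in counting.

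The remaining 4 receptors were higher in MD43 or nearly level. Aplnr, the apelin receptor of veins and sprouts, had 178 reads in WT and 308 in MD43, a difference of 0.32 ± 0.10. The angiopoietin receptor Tek stood at 0.15 ± 0.15 and its partner Tie1 at 0.23 ± 0.13. Flt4, the receptor for VEGF-C, was 0.08 ± 0.16. Of these, Aplnr alone passed 2 counting SE. The 8 receptors therefore had 4 genes on each side of 0 and a median difference of -0.08.

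The starts of 3 of these genes are shown to set the 2 VEGF receptors beside Tal1, the blood and endothelium factor with the second highest difference. Each run is the 250 bases before the RefSeq start of transcription in GRCm38.p6, on the strand of the gene. Capitals mark the letters AGGAAG, a core to which ETS factors bind, and AGATAA, bound by GATA factors, on either strand (CTTCCT and TTATCT on the other).
Flt1 (chr5:147726012-147726261, minus strand): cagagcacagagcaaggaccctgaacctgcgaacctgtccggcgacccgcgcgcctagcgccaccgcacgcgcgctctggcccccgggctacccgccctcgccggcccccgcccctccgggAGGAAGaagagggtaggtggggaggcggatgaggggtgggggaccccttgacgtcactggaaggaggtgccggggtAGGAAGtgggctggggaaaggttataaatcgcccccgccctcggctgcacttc
Kdr (chr5:75978456-75978705, minus strand): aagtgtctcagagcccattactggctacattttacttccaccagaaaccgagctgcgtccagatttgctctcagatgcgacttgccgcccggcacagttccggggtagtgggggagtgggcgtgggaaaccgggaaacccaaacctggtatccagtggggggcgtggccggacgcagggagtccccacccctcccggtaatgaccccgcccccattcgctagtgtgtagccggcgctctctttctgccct
Tal1 (chr4:115056176-115056425, plus strand): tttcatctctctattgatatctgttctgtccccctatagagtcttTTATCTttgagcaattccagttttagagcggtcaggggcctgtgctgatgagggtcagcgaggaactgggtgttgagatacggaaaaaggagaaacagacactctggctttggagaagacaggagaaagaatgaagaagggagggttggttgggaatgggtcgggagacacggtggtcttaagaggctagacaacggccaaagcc
The run before Flt1 held the ETS letters at 2 places, that before Kdr held neither of the 2 sets of letters searched, and that before Tal1 held the GATA letters once. A RefSeq promoter was given for 18 of the 34 genes. Of these, 9 (50%) held the ETS letters and 2 (11.1%) the GATA letters, against 29.5% and 9.99% of all 32851 promoters of the same length. The sets are unlike, since each of the 18 genes gave only the promoter nearest its deposited start. The 32851 are all promoters given, whether or not the gene is expressed here. The 9 include Etv2 and Hhex, which had next to no reads. Eng (2 places), Egfl7 (3 places) and Emcn (2 places) held the ETS letters more than once, with differences of -0.41, -0.28 and -0.05. Among the measured genes with the ETS letters at 1 place, Rasip1 was -0.33, Cd34 -0.10 and Tie1 0.23. Myct1, the other gene with the GATA letters, was 0.0020. Whether the letters go with the differences was not tested. The RefSeq start of Egfl7 lies 1069 bases from the start in the table. A match of letters describes the sequence and is not evidence of binding.

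The junction and surface proteins hold endothelial cells together or mark their lumen, and 8 of the 9 lay within 2 counting SE of 0. Beyond that limit, 25.8% of all tested genes were higher and 23.8% lower. Among the 7963 tested genes within the range of reads of the 32, the shares beyond it were 16.7% and 25.6%. Pecam1, the adhesion protein by which vessels are most often stained (ENSMUSG00000020717.19, chr11:106654217-106750628, minus strand), rested on 112 WT and 139 MD43 reads, with a level of 0.17 and -0.0038 log2 RPKM, and a difference of -0.17 ± 0.13. The tight junction protein Cldn5 was -0.11 ± 0.12, the adhesion molecule Esam -0.11 ± 0.13 and the sialomucin Cd34 -0.10 ± 0.06. Emcn, a sialomucin of veins and capillaries, was -0.05 ± 0.14, and Ecscr, a surface protein of endothelium, was -0.07 ± 0.17. None of these 6 lay 2 counting SE from 0.

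Icam2, an adhesion molecule for leukocytes, was lower at -0.33 ± 0.18, also within 2 counting SE. Myct1, a small membrane protein, was 0.0020 ± 0.33 on only 16.2 and 22.6 reads. The member of the group beyond 2 counting SE was Plvap, which forms the diaphragms of fenestrated vessels (chr8:71497765-71511752, minus strand). Its reads were 88.2 in WT against 170 in MD43, a difference of 0.47 ± 0.13, or 1.39-fold higher. Plvap overlaps Gtpbp3, which runs the other way. Whether counting was by strand is not given in the sources used here. Over the 9 genes of this group 7 were lower and 2 higher, where 48.8% and 51.2% of all tested genes were. The median of the group was -0.10.

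**Figure D2:**
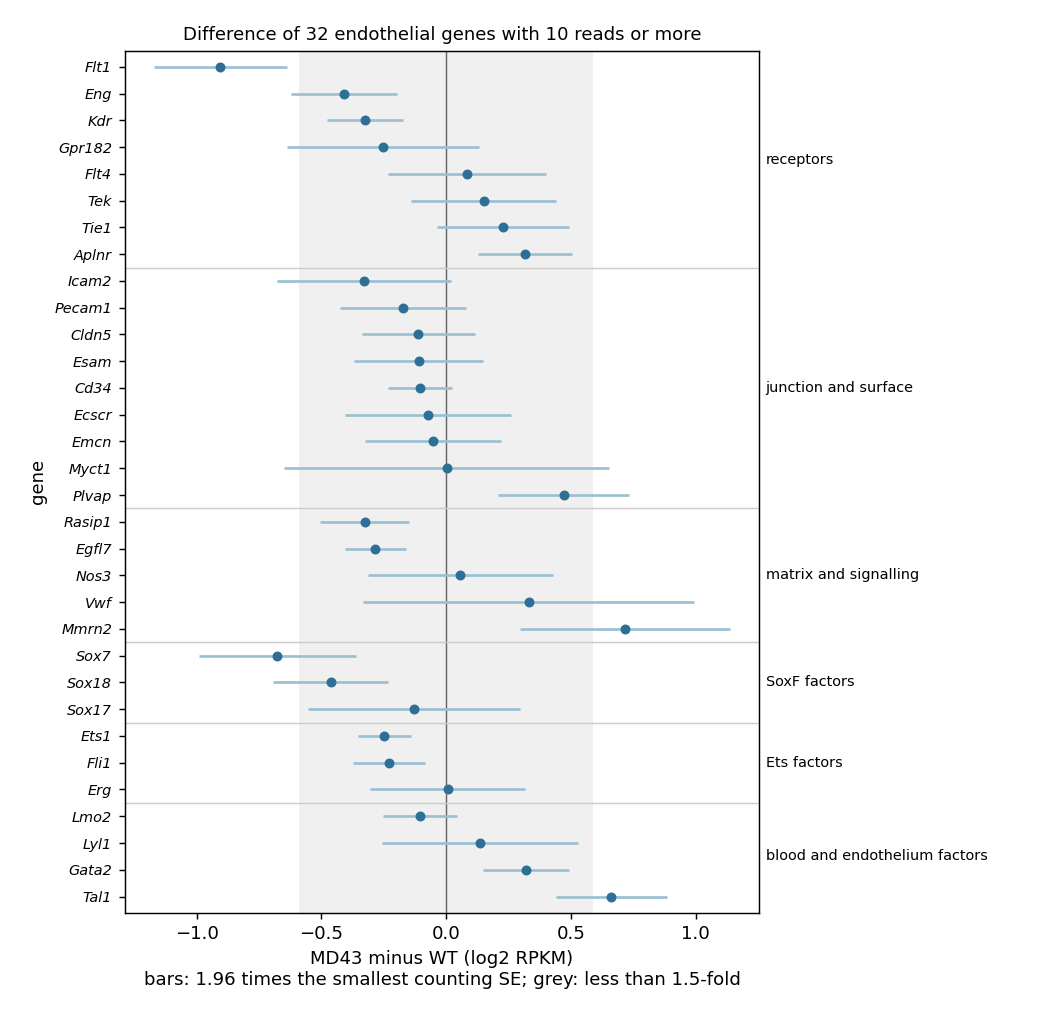
MD43 minus WT difference of log2 RPKM (x axis) for the 32 genes with at least 10 reads, sorted within roles; bars are counting intervals and the grey band covers less than 1.5-fold. Flt1 (-0.90) and Sox7 (-0.68) lie left of the band, and Mmrn2 (0.72) and Tal1 (0.66) lie right of it.

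Among matrix and signalling genes, Mmrn2, an extracellular matrix protein that endothelium lays down (ENSMUSG00000041445.9, chr14:34375465-34404287, plus strand), had the highest difference of the 32. Its reads were 32.4 in WT against 74.2 in MD43, with a level of -0.98 and -0.26 log2 RPKM, and a difference of 0.72 ± 0.21, or 1.65-fold higher. Egfl7 was lower at -0.28 ± 0.06 on 511 and 584 reads, and Rasip1, a RAS-interacting protein needed for vessels to open a lumen, was lower at -0.33 ± 0.09. Egfl7 shares its span with Gm20532 on its own strand and Agpat2 on the other, and Rasip1 with 3 other genes, so some reads of both are uncertain. Nos3, the endothelial nitric oxide synthase, was 0.06 ± 0.19. Vwf, at 0.33 ± 0.34, rested on 14.3 WT and 25 MD43 reads.

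All 3 SoxF factors were lower in MD43, where 48.8% of all tested genes were. Sox7 (ENSMUSG00000063060.6, chr14:63943673-63950732, plus strand), which acts early in vessel formation, rested on 87.7 WT and 76.3 MD43 reads, a difference of -0.68 ± 0.16, or 1.60-fold lower. Sox18 (chr2:181669836-181671640, minus strand), needed for lymphatic vessels, had 149 and 151 reads, which at the unequal depth is a difference of -0.46 ± 0.12. Sox17, an arterial factor, on 39.8 and 50.6 reads, was -0.13 ± 0.22, within its counting error. The summed RPKM of the 3 genes was 7.92 in WT and 5.68 in MD43.

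Of the Ets factors, Fli1 and Ets1 were lower by similar amounts, -0.23 ± 0.07 and -0.25 ± 0.05. The 2 genes are neighbours on chromosome 9, 93.4 kb apart, and both are also expressed outside endothelium. Erg, which keeps the endothelial programme active, had equal levels of 0.36 log2 RPKM in WT and 0.37 in MD43 (0.01 ± 0.16). Etv2, the early inducer of the lineage, had no reads in either WT library and 2.83 reads in MD43, which is too few for a fold.

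Of the blood and endothelium factors 3 of 4 measured genes were higher in MD43, where 51.2% of all tested genes were, and Tal1 and Gata2 passed 2 counting SE. Tal1, the helix-loop-helix factor of blood and vessel progenitors (ENSMUSG00000028717.12, chr4:115056426-115071755, plus strand), rested on 118 WT and 260 MD43 reads. Its level was 0.75 log2 RPKM in WT and 1.41 in MD43, a difference of 0.66 ± 0.11, or 1.58-fold higher. Gata2, a zinc finger factor of the same progenitors, was 0.32 ± 0.09 on 215 and 373 reads. Lyl1, a close relative of Tal1, was 0.14 ± 0.20. Lmo2, the partner of both, was -0.11 ± 0.08. All 12 genes of a red blood cell list were also higher in MD43, with a median difference of 0.86, and their part in the Tal1 and Gata2 values was not tested. Hhex, a homeobox factor of early endothelium and foregut, had no reads in any of the 4 libraries, where a count of 0 allows up to 3 reads a library.

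Taking every difference beyond 2 counting SE, 5 of the 32 genes were higher (15.6%) and 9 lower (28.1%), where 25.8% of all tested genes were higher and 23.8% lower. The counting SE depends on the number of reads, and among the 7963 tested genes within the range of reads of the 32 the shares were 16.7% and 25.6%. The genes beyond 2 counting SE were Aplnr, Plvap, Mmrn2, Tal1 and Gata2 on the higher side, and Kdr, Flt1, Eng, Egfl7, Rasip1, Sox7, Sox18, Fli1 and Ets1 on the lower side. The median size of the difference, regardless of sign, was 0.24 for the 32 genes and 0.19 for the 7963.

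How far the 2 embryos of a genotype differed could be read for some genes, because a product of reads is a whole number with few divisors. The MD43 product of Pecam1, for instance, was 19236, which is 84 times 229, and any other pair would need libraries 10.9-fold apart or more. Pairs were read only for products from 100 to 100000, and accepted where just 1 was less than 4-fold apart. Products above this were not read, those of Kdr, Cd34, Egfl7, Fli1, Ets1 and Lmo2 in both genotypes and of Gata2 in MD43. Among the genes of 30 reads or more that had such a pair, the library with more reads had 1.52 times those of the other as a median in MD43 (1401 genes) and 1.52 times in WT (1496 genes), a figure that includes any difference in depth. Which embryo had more is not known.

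In MD43, 25 of the 34 genes had a product within these limits, and 7 of the 25 had such a pair. Pecam1 had 84 and 229 reads, 2.73-fold apart. Flt1 had 60 and 157 reads, 2.62-fold apart. Emcn had 80 and 197 reads, 2.46-fold apart, and Ecscr had 57 and 121. In these 4 genes the libraries were more than 2-fold apart, as they were for 11.2% of all genes with a pair. The other 3 were at most 2-fold apart, Rasip1 with 214 and 319 reads, Sox18 with 119 and 191, and Myct1 with 16 and 32.

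In WT, 26 of the 34 genes had a product within these limits, and 6 of the 26 had such a pair. Eng had 102 and 293 reads, 2.87-fold apart, and Sox18 had 101 and 221, whereas 17.3% of all genes with a pair were more than 2-fold apart. Tie1 with 77 and 111, Gpr182 with 41 and 61, Mmrn2 with 27 and 39 and Vwf with 12 and 17 reads were each close to the median ratio. The ratio of Flt1 in MD43 is 1.72 times the median ratio of that genotype and that of Eng in WT is 1.88 times its own. Dividing by the median allows for depth only if the library with more reads is the deeper one, which is not known. The 1.72 and 1.88 are therefore not measures of the difference between embryos. The genotype values differed 1.87-fold for Flt1 and 1.33-fold for Eng, and the part of single embryos in these differences was not tested.

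**Figure D3:**
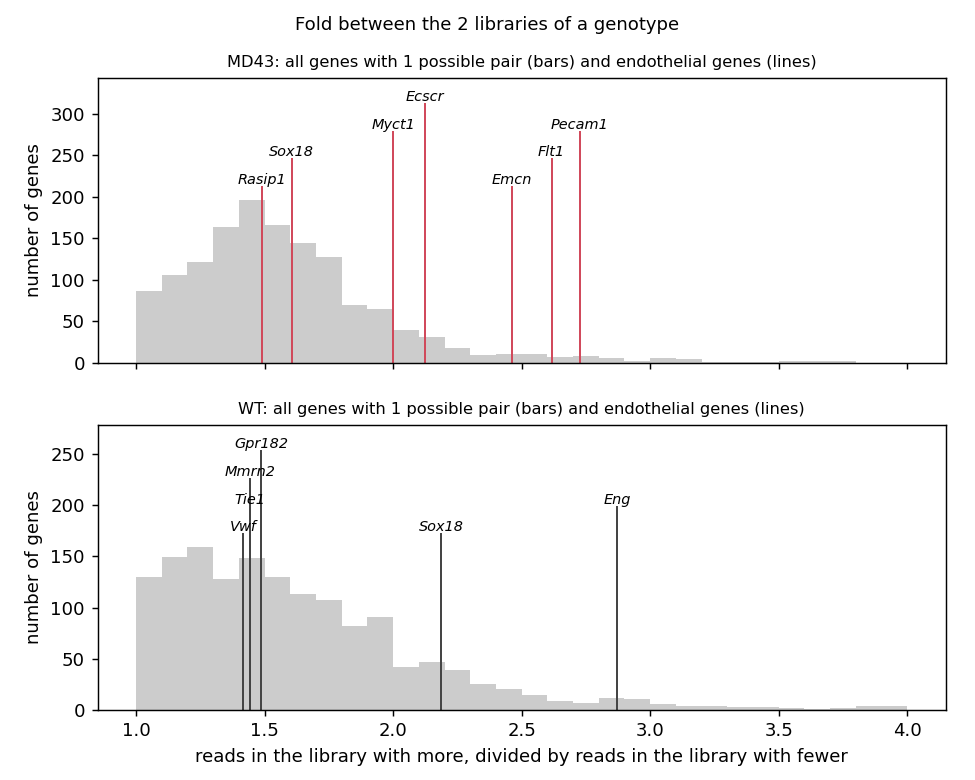
Number of genes (y axis) by the ratio of reads between the 2 libraries of a genotype (x axis, larger over smaller), for all genes of 30 reads or more with a single possible pair of read counts below 4-fold (grey bars), with the endothelial genes that had one drawn as lines (MD43 above, WT below). In MD43 Emcn, Flt1 and Pecam1 lie between 2.46 and 2.73, to the right of most genes, and in WT Eng lies at 2.87.

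Genes of the same pathways outside the 34 were then compared. Of 22 other endothelial genes, 21 had at least 10 reads, 5 higher and 16 lower, with a median of -0.11, which was -0.05 over the genes with 50 reads or more. Of all tested genes 51.2% were higher and 48.8% lower, the shares to set beside this count and those of the lists below. VE-cadherin (Cdh5), the adherens junction protein of endothelium, was level at 1.29 log2 RPKM in WT and 1.28 in MD43 (-0.01 ± 0.10), with 107 and 253 reads in the 2 WT libraries. In each genotype 3 genes of this list had a single possible pair. The libraries were more than 2-fold apart for 1 of the 3 in MD43 and for all 3 in WT. The differences farthest from 0 among those of 50 reads or more were Calcrl (-0.38 ± 0.18), Mef2c (-0.37 ± 0.11) and Adgrf5 (-0.33 ± 0.15). None of the 21 was 1.5-fold higher and 2 were 1.5-fold lower, where 4.24% and 6.43% of all tested genes were. The 2 were Klf4 (-0.76 ± 0.23), a factor that responds to blood flow, and Adgrl4 (-0.74 ± 0.27), an adhesion receptor. Both were named after their values were seen.

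Ligands of these receptors differed in both directions. Vegfa, the ligand of both KDR and FLT1, had 1891 reads in WT and 1452 in MD43, a level of 4.78 and 3.92 log2 RPKM and a difference of -0.86 ± 0.04, or 1.81-fold lower. Vegfb, a ligand of FLT1, was lower at -0.37 ± 0.06. The FLT4 ligand Vegfc was 0.23 ± 0.11 and the TEK ligand Angpt1 0.40 ± 0.08, both higher. Angpt2, the ligand that competes with Angpt1, had 0.29 ± 0.42 on 9.49 WT and 16.1 MD43 reads. Of the 9 ligands with 10 reads, 5 were higher and 4 lower. Among 8 co-receptors and effectors of vessel growth 5 were higher and 3 lower, with Unc5b, a netrin receptor, at 0.68 ± 0.05.

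Arterial genes were split, with 5 higher and 6 lower among 11 and a median of -0.02. Dll4, the Notch ligand of arteries and sprouting tips, was -0.60 ± 0.15, while Hey1 (0.38 ± 0.05) and Efnb2 (0.34 ± 0.03), which many other facial cells also express, were higher. Gja5, a connexin of arteries named after its values were seen, was the 1.5-fold higher gene of this list, at 0.85 ± 0.30 on 15.9 WT and 39.9 MD43 reads. In the vein and lymphatic list 1 gene was higher and 2 were lower. Nr2f2, a vein factor that facial mesenchyme also uses widely, was -0.95 ± 0.04 and Prox1, the lymphatic factor that neural cells share, was -0.72 ± 0.12. The lymphatic markers Lyve1 and Pdpn had at most 4.02 reads. Mural cell genes had a median of -0.11 over 7 genes, with Pdgfrb at -0.17 ± 0.07, Des at 0.64 ± 0.20 and Tagln at -0.56 ± 0.08. The summed RPKM of the 11 mural genes was 35.9 in WT and 34.5 in MD43.

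Tal1, Gata2, Lmo2 and Lyl1 are also blood genes, and transcripts of different blood cells differed in different directions. The 12 red blood cell genes had a summed RPKM of 3063 in WT and 5823 in MD43. Hbb-bh1, an embryonic globin, was 1.04 ± 0.01, Klf1, the red cell factor, was 0.88 ± 0.19 and Slc4a1, the anion exchanger of the red cell membrane, 1.52 ± 0.08. Klf1 had 51 and 193 reads in the 2 MD43 libraries, 3.78-fold apart. Early blood genes were higher in 4 of 5, with Runx1 at 0.36 ± 0.14. Macrophage genes were lower in 8 of 9 with a median of -0.19 (Csf1r -0.03 ± 0.09), and their summed RPKM was 9.09 in WT and 7.25 in MD43. All 5 megakaryocyte genes with 10 reads were lower, with Pf4 at -0.92 ± 0.21 on 53.8 and 39.5 reads and Itga2b at -0.05 ± 0.22.

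**Figure D4:**
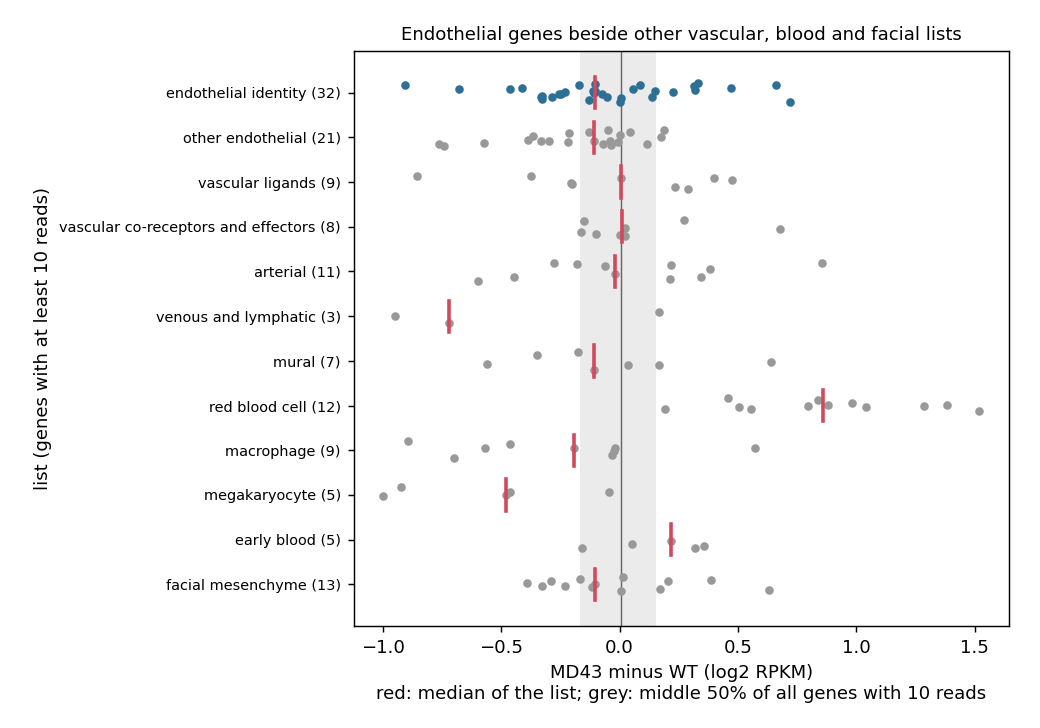
MD43 minus WT difference of log2 RPKM (x axis) for each gene with at least 10 reads (points) in the endothelial list (blue) and in 11 other lists (grey), with list medians in red, the median of all 15377 tested genes as a line and their middle 50% as a band. The endothelial median of -0.10 lies within the band and that of the red blood cell genes, 0.86, lies outside it.

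The facial mesenchyme list, used to check the tissue, was well expressed, with a summed RPKM of 190 in WT and 188 in MD43 and a median difference of -0.10 over 13 genes. The endothelial genes had lower levels, with a median among the 32 genes of 0.90 log2 RPKM in WT and 0.78 in MD43. The facial mesenchyme genes had 3.37 and 3.25. Levels of unlike gene lists do not measure the share of endothelial cells in the tissue.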

How the data were processed

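Per the labels, each FNP gave a stranded mRNA library (TruSeq). The authors trimmed the reads with Trim Galore 0.4.4, mapped them with HISAT2 2.0.5 to GRCm38.p6 and quantified them in SeqMonk. For 19 autosomes the authors deposited log2 RPKM, which corrects read numbers for sequencing depth and length of the transcript, merged into a single column for each genotype. Its columns of the authors' own comparison (FDR, fold change, mean) were not used, and 9 rows naming no gene were left out.

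Exon lengths were taken from GENCODE M21 (GRCm38), which matched 33101 rows by symbol and coordinates. For Lyl1, whose ends differ, the exons were widened to the ends in the table, and both products were then whole. Genes without reads fixed the scale (12302 genes, each library counted as 0.9 reads). Of the products from 1000 to 100000, at least 99.7% lay within 0.1 of a whole number. The recovery was tested on data simulated with the same 0.9 reads, exon lengths and formula, so it checked the arithmetic and not these assumptions. The variation between simulated libraries was a chosen setting, so the share of wrong pairs in the real data is not known. Python 3.11.15, numpy 2.4.6 and pandas 2.3.3 were used.

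With 1 value per genotype no test could be made, and a count test planned for a table of counts was not run. Shares are set beside all genes reaching 10 reads in WT or MD43. The genes and lists were chosen with earlier results of these data known. All 34 genes are named. From other lists, genes were named by a fixed set and as the 4 farthest from 0 with 50 reads or more, and Lyve1, Pdpn, Klf4, Adgrl4 and Gja5 were added after their values were seen. The reading of pairs of libraries was devised after the data were seen. Alternatives were pseudocounts, read filters, centring, a length and GC fit, a floor of 3 reads and other folds.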

Additional observations from a re-analysis of the deposited data

How the results depend on the processing

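The median difference of the endothelial genes passing the read filter (32 of the 34 in the main setting) stayed between -0.11 and -0.063 under every alternative run. The number higher in MD43 stayed between 11 and 14. With a pseudocount of 1 RPKM, 0 genes were 1.5-fold higher and 0 were 1.5-fold lower in place of 2 and 2, since a pseudocount near the level of a gene shrinks its difference. Flt1 became -0.28, Mmrn2 0.28, Sox7 -0.38 and Tal1 0.45. At 5/4-fold 4 genes were higher and 7 lower, where 10.3% and 13.9% of all tested genes were, and at 2-fold 0 and 0. Of 190 values of single genes under the alternatives, 188 stayed within their counting interval. The 2 that left it were Flt1 and Mmrn2, both with a pseudocount of 1 RPKM. Emcn under the length and GC fit and Myct1 under centring, both near 0, stayed within it but took the other sign. The median of the vascular ligands (0.0072) was -0.20 with no filter and with 50 reads, and that of the arterial genes (-0.02) was 0.095 with 50 reads and 0.02 under the length and GC fit. The filter of 50 reads removes genes and no filter adds them. The median of the other endothelial genes (-0.11) was -0.05 with 50 reads. With a pseudocount of 1 RPKM the medians of the red blood cell (0.86), megakaryocyte (-0.48), vein and lymphatic (-0.72) and early blood genes (0.22) were 0.55, -0.17, -0.35 and 0.12, and with no filter the megakaryocyte median was -0.25. The ligand median was 0.088 under the length and GC fit. No paired analysis was possible because both libraries of a genotype are merged in the values used, and for the same reason leaving out a library was not run. The reading of pairs of libraries was chosen after seeing the data. Depth limits Etv2, Hhex, Vwf and Myct1.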
